A study of Rattus norvegicus with 10 samples.

Results

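Genes that carry or restrain interleukin 6 (IL6), interleukin 1 (IL1) and NF-kB signals were followed in rat liver on every array: the ligand gene Il1b, the receptor genes Il6r, Il6st and Il1r1, the transducer gene Stat3, the inhibitor genes Il1rn, Socs3 and Nfkbia, and the transcription factor genes Cebpb and Cebpd. Members were the probes whose accession belongs to 1 of the 10 symbols. Through the RefSeq table, 9 of the 10 genes had a named probe, with 14 probes in all, among 13837 named genes. Il1r1, the signalling receptor of IL1, had no probe named in this way, so its array signal was not analysed and only its promoter was searched. Liver RNA came from male Sprague Dawley rats, 1 one-colour Agilent array per rat, all killed 24 h after the injection; their age was not given in the sources used here. The 3 control rats were given the solvent alone. Sulfur mustard (SM), an alkylating vesicant, was injected under the skin of 4 rats at 3.5 mg/kg in propylene glycol. Another 3 rats received the same SM dose and, 1 h later, 120 mg/kg of MSTF by mouth (SM + MSTF), a mixture of salvianolic acids and total flavonoids. No rats were given MSTF without SM, so these arrays do not show what MSTF alone does. Liver is a mixture of cell types, and a lower signal from fewer cells of a type cannot be told apart from less RNA per cell.

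IL6 binds its receptor Il6r, and the pair engages gp130, the product of Il6st, which activates Janus kinases and the transcription factor Stat3. In hepatocytes Stat3, together with the C/EBP factors Cebpb and Cebpd, drives the acute phase genes, and it also induces Socs3, which shuts the receptor off. IL1, made largely by macrophages, frees NF-kB from its inhibitor IkBa (Nfkbia), and NF-kB then induces Nfkbia itself. Il1rn encodes the antagonist that occupies the IL1 receptor without signalling.

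All values below are log2 signals after quantile normalization over the 10 arrays, or differences between them, and the signal of a gene is that of its brightest probe unless another is named. A probe was well above background where the scanner software marked it so, and all 14 probes were on all 10 arrays. Array medians of signal over background were 2.20 to 2.54. A gene was called changed at a limma adjusted p under 0.05, with Benjamini-Hochberg adjustment over the 22991 tested probes, and a change of at least 1.5-fold. Of the 3 slides, the first carried SM + MSTF 3 with all controls, the second only the 4 SM arrays, and the last SM + MSTF 1 and 2, so SM and slide 2 cannot be told apart. One array stood apart: SM + MSTF 3 correlated with the other SM + MSTF arrays at r = 0.977 and 0.979 across tested probes, against 0.988 between those 2, and had the lowest mean correlation with the other 9 arrays (0.978). It held the highest signal for 13.7% and the lowest for 18.5% of tested probes, and 57.9% of all probes were well above background on it, within the range of the other arrays. The SM + MSTF values of the regulators are also given without it. It was singled out by these same genes, so those values are no independent check.

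In limma 0 of the 9 regulators were called in any of the 3 comparisons of groups. Of all tested probes 2.41% were called in SM versus control, 0% when SM + MSTF was set against control and 1.26% when it was set against SM. At an unadjusted p under 0.05 in limma for the brightest probe, 0 of the 9 passed for SM over control (16.4% of tested probes), Cebpb passed for SM + MSTF over control (9.54%) and Il1b for SM + MSTF over SM (15.9%). The methods' t-test, unadjusted and with the fold minimum, called 1 of the 9, Cebpb in SM + MSTF versus control, where it called 1.24% of tested probes, and after Benjamini-Hochberg adjustment 0. The clearest feature lay within a group: 8 of the 9 regulators, all but Cebpb, had their highest signal of the 10 arrays in SM + MSTF 3, as had 13 of the 14 probes, where 13.7% of tested probes had it there. That array was noticed in the data, so the count is a description.

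**Figure D1:**
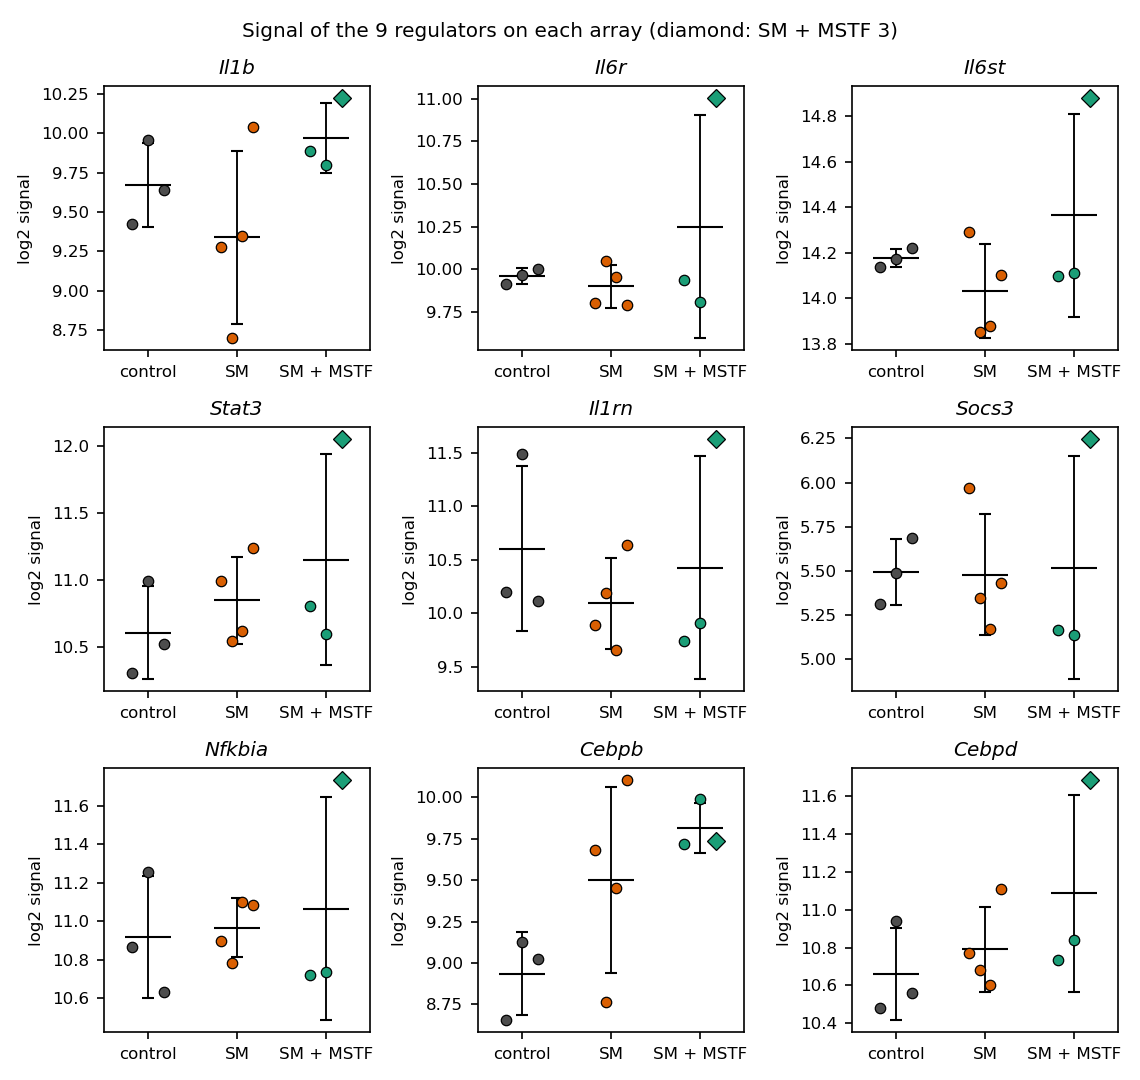
Log2 signal (y axis) of the 9 regulators on each array of the control, SM and SM + MSTF groups (x axis); points are arrays, the diamond is SM + MSTF 3, and bars give the mean ± SD (n = 3, 4 and 3). The diamond is the highest point in every panel except that of Cebpb, where all SM + MSTF arrays lie above all controls.

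Among the ligands, Il1b, the gene of IL1 beta, had signals of 9.43, 9.96 and 9.64 on the control arrays, 9.28, 8.70, 9.35 and 10.04 on the SM arrays, and 9.89, 9.80 and 10.22 on the SM + MSTF arrays. The lowest of all was SM 2, while only SM + MSTF 3 lay above SM 4, so the SM arrays spanned the range of the controls and every pair of groups overlapped. SM minus control was -0.33 for Il1b (standard error 0.27, adjusted p = 0.599), and it was -0.12 without SM 2 and -0.57 without SM 4. Set against SM, the SM + MSTF arrays were at 0.63 (standard error 0.27, adjusted p = 0.303; 95% interval 0.02 to 1.24). Without SM + MSTF 3 the latter value was 0.50 (adjusted p = 0.523), without SM 2 it was 0.42 and without SM 4 it was 0.86 (adjusted p = 0.0951). A second probe of Il1b gave -0.56 and 0.66 in these comparisons, also not called. Il1b was at 0.30 for SM + MSTF over control (adjusted p = 0.770), or 0.17 without SM + MSTF 3, and its second probe was at 0.11, or -0.08 over SM + MSTF 1 and 2 alone. The other ligand of the axis, Il6, had a probe well above background on 0 of the 10 arrays, which was not tested, and the same held for Tnf, the gene of the NF-kB activating cytokine TNF (both named after their values were seen).

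Of the receptors, Il6r, which binds IL6, gave 9.91, 9.97 and 10.00 on the control arrays, 9.80, 10.05, 9.96 and 9.79 on the SM arrays, and 9.94, 9.81 and 11.00 on the SM + MSTF arrays. The first 9 values named lay within 0.26 of each other, and SM + MSTF 3 stood 0.95 above the next highest. In SM versus control Il6r was at -0.06 (standard error 0.25, adjusted p = 0.932; 95% interval -0.61 to 0.49). Its difference in SM + MSTF versus control was 0.29 (standard error 0.26, adjusted p = 0.751), and without SM + MSTF 3 it was -0.09 (standard error 0.11, adjusted p = 0.816). With the slide as a block, as described with Cebpd, SM + MSTF 3 was at 1.04 against the controls of its own slide. That estimate rests on 1 array, singled out by these same genes, so a call from it carries no weight.

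Signals of Il6st, whose product gp130 passes on the signal of the whole IL6 family, were 14.14, 14.17 and 14.22 in the controls, 14.29, 13.85, 13.88 and 14.10 in SM, and 14.10, 14.11 and 14.88 in SM + MSTF. The controls were close together, 3 of the SM arrays and 2 of the SM + MSTF arrays lay below them, SM 1 lay just above, and SM + MSTF 3 was again alone at the top. Its log2 fold change was -0.15 for SM over control (adjusted p = 0.763). For SM + MSTF it was 0.19 over control (adjusted p = 0.797) and 0.33 over SM (adjusted p = 0.415), and without SM + MSTF 3 these were -0.07 and 0.07. The other 2 probes of Il6st were at 0.21 and 0.16 in SM versus control, opposite in sign to the brightest, and neither was called. On the second probe the controls, at 9.83, 9.84 and 9.88, lay below every SM array (9.91 to 10.22) and every SM + MSTF array (10.02 to 10.84). That probe was at 0.49 in SM + MSTF versus control (standard error 0.19, adjusted p = 0.480; 95% interval 0.06 to 0.93), with an unadjusted p under 0.05 in limma, and the last probe was at 0.33 (adjusted p = 0.692). Over SM + MSTF 1 and 2 alone these probes were at 0.25 and 0.04 against the controls. All 3 probes were highest on SM + MSTF 3.

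Stat3, the transducer, was at 10.31, 10.99 and 10.52 in control, 10.99, 10.54, 10.62 and 11.24 in SM, and 10.81, 10.60 and 12.05 in SM + MSTF. Controls and SM arrays were interleaved, and SM + MSTF 1 and 2 lay among them. Its fold change in SM versus control was 0.24 (standard error 0.34, adjusted p = 0.776), but a second probe of Stat3 gave -0.34 (adjusted p = 0.746), so the sign of this small difference was not settled. In SM + MSTF versus control Stat3 was at 0.55 (standard error 0.36, adjusted p = 0.656). Leaving out SM + MSTF 3 brought this to 0.09 (standard error 0.25, adjusted p = 0.920). The second probe was at 0.08 in that comparison (adjusted p = 0.970) and at -0.55 over SM + MSTF 1 and 2 alone. It was also highest on SM + MSTF 3, at 12.22, against 10.09 to 11.14 on the other 9 arrays.

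**Figure D2:**
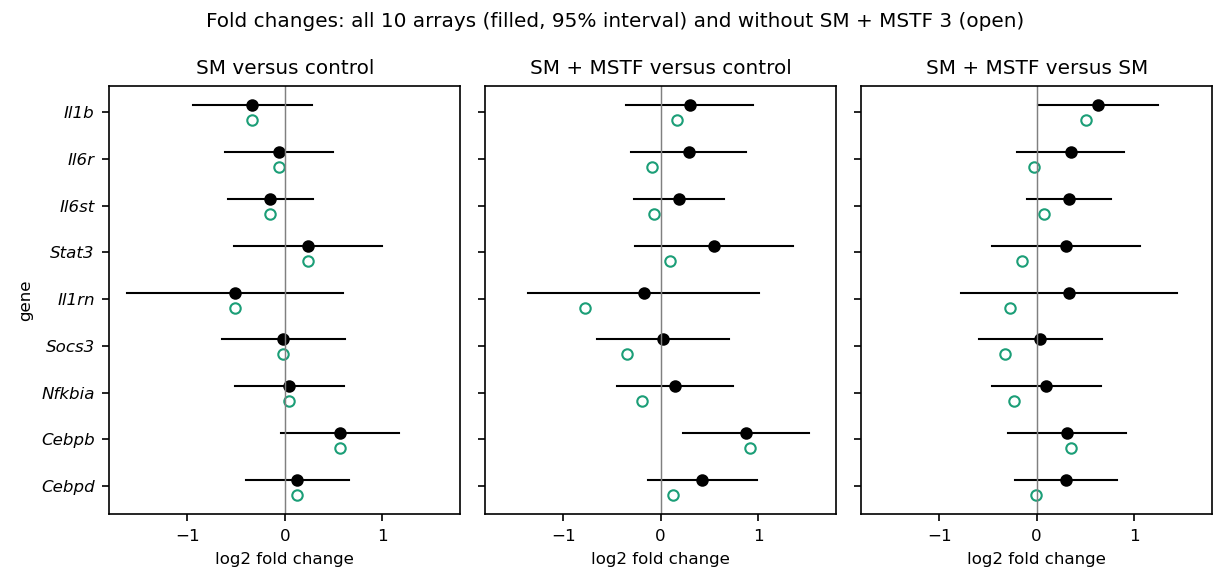
Log2 fold change (x axis) of each regulator (y axis) in the 3 comparisons; filled points with lines are the limma estimates from all 10 arrays and their 95% intervals, and open points are the estimates without SM + MSTF 3. Most intervals include 0, and most open points of the SM + MSTF comparisons lie to the left of the filled ones.

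Il1rn, the antagonist of the IL1 receptor, varied most of the 9 within the control group. Its signals were 10.20, 11.49 and 10.12 in control, 9.89, 10.19, 9.66 and 10.64 in SM, and 9.74, 9.91 and 11.63 in SM + MSTF. One control and 1 SM + MSTF array were high, and the remaining 8 arrays lay between 9.66 and 10.64. The fold change in SM versus control was -0.51 (standard error 0.49, adjusted p = 0.663; 95% interval -1.62 to 0.60), and without control 2 it was -0.06. In SM + MSTF versus control it was -0.18 (adjusted p = 0.935), which became -0.78 without SM + MSTF 3 (adjusted p = 0.514) and 0.27 without control 2. A second probe of Il1rn was at -0.10 for SM over control (adjusted p = 0.921). For SM + MSTF over control that probe was at -0.08 (adjusted p = 0.964), or -0.56 over SM + MSTF 1 and 2 alone.

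Socs3, the inhibitor of receptor-bound Janus kinases that Stat3 induces, was at 5.31, 5.49 and 5.68 in control, 5.97, 5.35, 5.17 and 5.43 in SM, and 5.17, 5.14 and 6.25 in SM + MSTF. SM 1 and SM + MSTF 3 were the 2 high arrays, and SM + MSTF 1 and 2 and SM 3 the lowest. The group means hardly differed, at 5.49 ± 0.19 (SD, n = 3), 5.48 ± 0.34 (n = 4) and 5.52 ± 0.63 (n = 3). Socs3 was the dimmest of the regulators, close to the median of all probes in the deposited log2 values (5.18 on each array). The size of its fold changes is therefore less certain than for the others. Its fold changes were -0.02 in SM versus control (standard error 0.28, adjusted p = 0.985; 95% interval -0.65 to 0.62) and 0.02 in SM + MSTF versus control (adjusted p = 0.988). Without SM + MSTF 3 the latter was -0.34 (standard error 0.22, adjusted p = 0.595), so the near-zero mean of that group averaged 2 low arrays and 1 high one.

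Nfkbia, the inhibitor that NF-kB induces against itself, had signals of 10.87, 11.26 and 10.63 in control, 10.90, 10.78, 11.10 and 11.08 in SM, and 10.72, 10.74 and 11.73 in SM + MSTF. SM arrays all fell within the range of the controls. Nfkbia was at 0.05 in SM versus control (standard error 0.25, adjusted p = 0.947; 95% interval -0.51 to 0.61), at 0.15 in SM + MSTF versus control (adjusted p = 0.883), and at -0.19 in the latter without SM + MSTF 3 (adjusted p = 0.738). Its promoter is shown because Nfkbia is a known target of NF-kB. The 250 bases before the annotated start of Nfkbia, from the RefSeq promoter table (GRCr8, chr6:78597073-78597322, minus strand, outside the transcript), read 5′ to 3′ as follows, with the 1 match to the NF-kB consensus in capitals.
Nfkbia: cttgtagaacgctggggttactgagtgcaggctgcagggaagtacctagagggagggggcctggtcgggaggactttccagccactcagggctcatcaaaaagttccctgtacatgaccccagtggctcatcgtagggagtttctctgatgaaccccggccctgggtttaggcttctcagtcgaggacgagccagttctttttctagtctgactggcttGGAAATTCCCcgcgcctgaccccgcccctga
The match begins 31 bases before the start and lies on the strand opposite to the gene. Promoter windows, from 250 bases before to 50 bases after the start, were found for 9 of the 10 genes (all but Cebpd) and searched on both strands. The NF-kB consensus was present for Nfkbia, Il1r1 and Socs3, and in 4.18% of 33469 promoters. Of the other motifs, TTGCNNAA (C/EBP) matched only Il1b, after its start, with a share of 10.6% of all promoters, and TTCNNNGAA (STAT), present in 8.87%, and its subset TTCCNGGAA, in 1.27%, matched none of the 9. A match is a run of letters and not a measured binding site, and no match says nothing of other windows.

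Cebpb, a transcription factor of the acute phase and of macrophage activation, was the 1 regulator whose brightest probe separated 2 groups. It gave 8.65, 9.13 and 9.03 in control, 9.68, 8.76, 9.46 and 10.10 in SM, and 9.72, 9.99 and 9.73 in SM + MSTF. All 3 SM + MSTF arrays lay above all 3 controls, and 3 of the 4 SM arrays did too, with SM 2 at the control level. Groups without overlap made up 15.4% of tested probes in SM + MSTF versus control, so 1 of 9 regulators was near that share. For SM versus control 0 of 9 regulators (18% of tested probes) and for SM + MSTF versus SM 0 of 9 (14.7%) had groups without overlap on the brightest probe. The fold change of Cebpb was 0.57 in SM versus control (standard error 0.27, adjusted p = 0.339; 95% interval -0.04 to 1.17) and 0.88 in SM + MSTF versus control, which is 1.84-fold (standard error 0.29, adjusted p = 0.424; 95% interval 0.23 to 1.52). It did not rest on SM + MSTF 3, since without that array it was 0.92 (standard error 0.34, adjusted p = 0.332). The difference in SM + MSTF versus SM was 0.31 (adjusted p = 0.577), or 0.35 without SM + MSTF 3, 0.07 without SM 2 and 0.51 without SM 4. In SM versus control, leaving out SM 4 gave 0.36 and leaving out SM 2 gave 0.81 (adjusted p = 0.0782), still not called.

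Cebpd, the C/EBP factor that IL6 and IL1 induce early, was at 10.48, 10.94 and 10.56 in control, 10.77, 10.68, 10.60 and 11.11 in SM, and 10.74, 10.84 and 11.69 in SM + MSTF. Apart from SM + MSTF 3, the arrays lay within 0.63 of each other. Its fold change was 0.13 in SM over control (standard error 0.23, adjusted p = 0.833) and 0.43 in SM + MSTF versus control (standard error 0.25, adjusted p = 0.615), or 0.13 without SM + MSTF 3 (adjusted p = 0.834). SM + MSTF 3 shared slide 1 with the controls. With the slide as a fixed block, the SM + MSTF estimate compares SM + MSTF 3 with the controls of its own slide, and its error is taken from the other arrays. Cebpd was then at 1.03, Stat3 at 1.45 and Il6r at 1.04. This fit was made in 2 forms. The form run first held only control and SM + MSTF arrays, and in it no regulator was called; the limma adjusted p of Il6r was 0.0502. After that result was seen, the fit was repeated on all 10 arrays, and there Il6r was called (2.06-fold, adjusted p = 0.0198), while Stat3 (adjusted p = 0.0798) and Cebpd (adjusted p = 0.0871) were not. The call of Il6r thus depended on a form of the fit chosen after its result in the other was known, and on 1 array, which had been singled out by these same genes. Slide 3 held 2 SM + MSTF arrays and slide 2 the SM arrays alone, so neither gives a value within the slide.

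**Figure D3:**
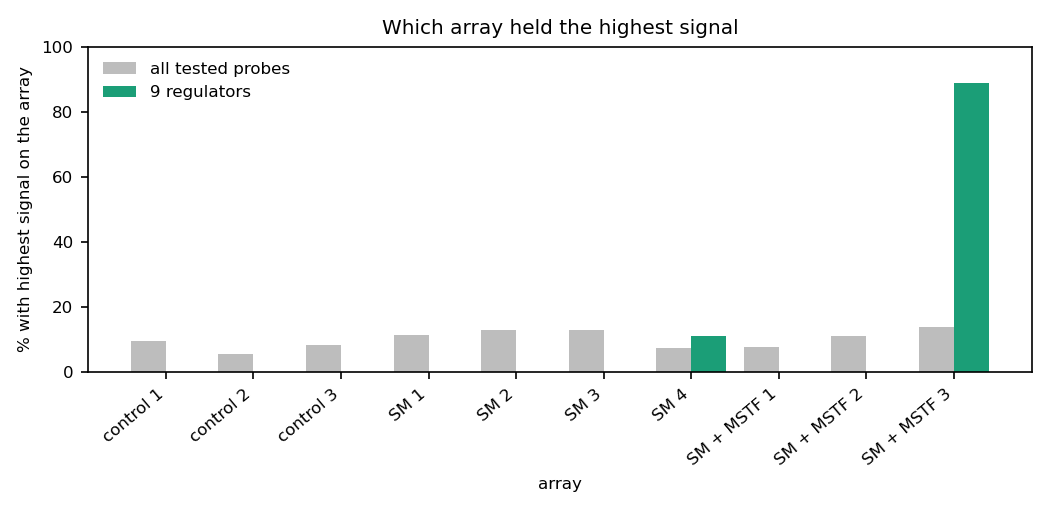
Share in percent (y axis) of all 22991 tested probes (grey) and of the 9 regulators (green) whose highest signal lay on each array (x axis). The green bar of SM + MSTF 3 stands for 8 of the 9 regulators and the grey bar beside it for 13.7%.

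The regulators were also compared in pairs, with and without SM + MSTF 3. Over the 10 arrays the median Pearson r of the 36 pairs was 0.64 (Spearman 0.35), and 29 pairs were over 0.5. Without SM + MSTF 3 the median over 9 arrays was 0.21 (Spearman 0.10), 9 pairs were over 0.5 and 11 were below 0. Stat3 and Cebpd stayed close without it (r = 0.96 over 10 arrays, 0.88 over 9). Other pairs over 0.5 in both sets included Socs3 and Il6st (0.85 and 0.66) and Il1rn and Nfkbia (0.80 and 0.62). Stat3 and Cebpb (0.53 and 0.66) and Cebpb and Cebpd (0.54 and 0.68) were among them too, though below the median of all pairs over 10 arrays. Without that array Il6r turned from positive to negative against Il6st (0.79 to -0.47), Cebpd (0.75 to -0.53), Stat3 (0.74 to -0.50) and Il1b (0.35 to -0.45), and against Cebpb it went from 0.02 to -0.77. These correlations are descriptions of arrays that differ in treatment and slide. Because SM + MSTF 3 was singled out by these same genes, a lower median r without it was built into that choice. Pairs of other genes were not set beside these. Control 2 was the highest control for 6 of the 9 regulators, and SM 4 the highest SM array for 5.

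**Figure D4:**
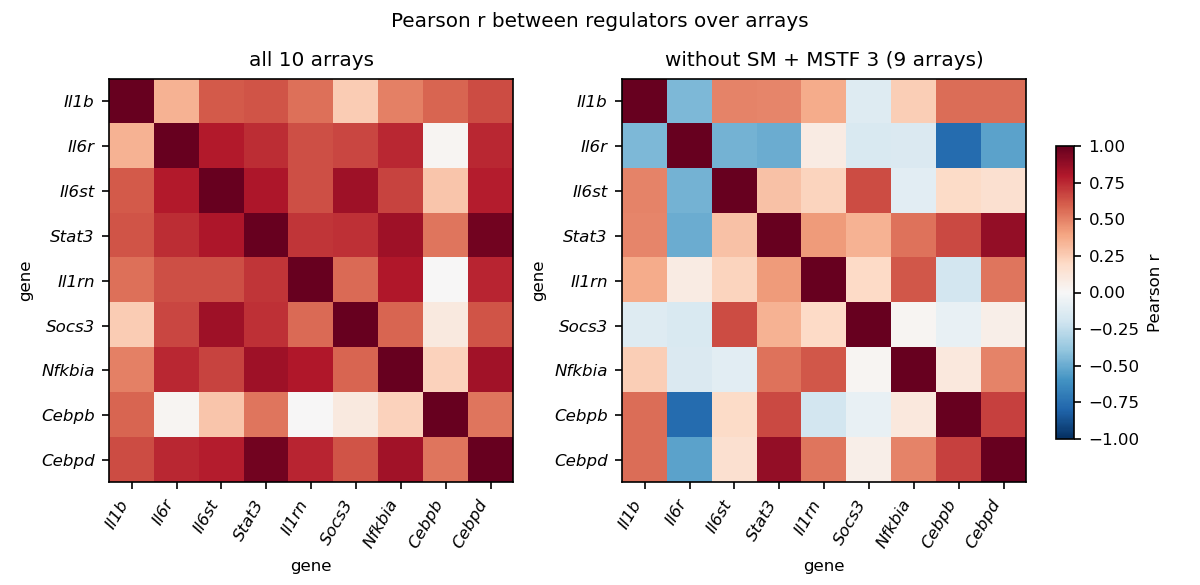
Pearson r between regulators (both axes) over all 10 arrays (left) and over the 9 arrays without SM + MSTF 3 (right), on a colour scale from -1 to 1. Nearly all pairs are red on the left, and 11 pairs are below 0 on the right.

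Among 9185 other named genes with a tested probe, those most like Nfkbia over the 10 arrays were Tsc22d3, a glucocorticoid-induced gene (r = 0.948), Tp53inp1 (0.920), Tnks2 (0.915), Map3k3 (0.898) and Gadd45b, an NF-kB target and stress gene (0.896). Most like Socs3 were Arl4a (r = 0.914), Xdh, which encodes xanthine dehydrogenase (0.890), Cnppd1 (0.878), Tp53i13 (0.875) and Cnr2, a cannabinoid receptor (0.873). All 10 genes were highest on SM + MSTF 3. Nfkbia and Socs3 peaked there too, so choosing genes by their likeness to them largely fixed this in advance. Without that array, r over 9 arrays was 0.682 to 0.860 for the genes like Nfkbia and 0.748 to 0.815 for those like Socs3. These values come from the same chosen genes, so they are no independent check.

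The other genes of these pathways came from 8 lists holding 132 genes besides the 10, of which 110 had a named probe and 93 were tested. In limma 0 of the 93 were called in any of the 3 comparisons, and 8, 13 and 12 had an unadjusted p under 0.05 in the order SM over control, SM + MSTF over control and SM + MSTF over SM, beside 16.4%, 9.54% and 15.9% of tested probes. SM + MSTF 3 held the highest signal for 37 of the 93 (39.8%), beside 13.7% of tested probes. By list, it was highest for 1 of 5 IL6 family ligands and receptors, 8 of 20 JAK, STAT and SOCS genes, 4 of 8 IL1 family genes, 1 of 8 MyD88 relay genes, 6 of 16 NF-kB subunits, inhibitors and kinases, 0 of 4 C/EBP family genes, 9 of 17 acute phase targets and 8 of 15 NF-kB targets. Median log2 fold changes of the lists in SM versus control ran from -0.40 (NF-kB targets) to 0.25 (IL6 family), beside 0.03 over all tested probes. In SM + MSTF versus control they ran from -0.04 (NF-kB targets) to 0.30 (acute phase targets), beside 0.00 over all tested probes, and without SM + MSTF 3 these 2 lists were at -0.38 and 0.14. In SM + MSTF versus SM they ran from -0.15 (IL6 family) to 0.27, beside -0.02 over all tested probes. The IL1 family, the acute phase targets and the NF-kB targets were all at 0.27, and at 0.14, 0.03 and 0.05 without SM + MSTF 3.

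Around the IL1 regulators, the alarmin Il33 was at 0.49 (adjusted p = 0.207) and Il1rap, the accessory chain of the IL1 receptor, at 0.41 (adjusted p = 0.207) in SM versus control. For the IL6 axis the smallest p-values in that comparison belonged to Ctf1, an IL6 family ligand (0.34, adjusted p = 0.187), and Lifr, which pairs with gp130 (0.25, adjusted p = 0.496). Further down, Socs4 was at 0.36 (adjusted p = 0.135), Stat2 at -0.40 (adjusted p = 0.266), the MyD88 relay ligase Traf6 at 0.36 (adjusted p = 0.410), the relay ligase Peli1 at 0.30 (adjusted p = 0.424), Nfkbib, a second IkB inhibitor, at 0.19 (adjusted p = 0.381), Tnip1 at -0.18 (adjusted p = 0.440) and Cebpg at -0.34 (adjusted p = 0.229). The brightest genes of their lists were also uncalled in SM versus control: Ptpn6 at -0.09, Sigirr at 0.20, Tollip at 0.21, Tnfrsf1a at -0.22 and Ier3 at -0.40.

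Downstream of Nfkbia and NF-kB, Ccl2, a monocyte chemokine, was at 7.49, 8.17 and 7.34 in control, 5.99, 5.66, 6.27 and 7.43 in SM, and 6.79, 7.29 and 6.57 in SM + MSTF. SM 1, 2 and 3 lay below every control and SM 4 among them, and the fold change of -1.33 (standard error 0.39, adjusted p = 0.119) was not called. Tnfaip2 was at -0.51 in the same comparison (adjusted p = 0.305). After their values were seen, the NF-kB targets with the largest gap of SM + MSTF 3 above the next highest array were picked out. They were the chemokine gene Cxcl1 (12.52, others 7.37 to 11.04), Gadd45b (11.29, others 8.14 to 9.99) and the adhesion gene Vcam1 (10.77, others 9.18 to 10.07). That this array lay on top for them was the rule of choice and not a finding.

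Downstream of Stat3 and the C/EBP factors, haptoglobin (Hp), the brightest gene of the acute phase list, was at 0.14 in SM versus control (adjusted p = 0.485) and Serpina3n at 0.23 (adjusted p = 0.549). Lbp, Cp and Fgg were picked by the same rule, as the acute phase genes with the largest gap of SM + MSTF 3 above the next highest array. Lbp, which binds endotoxin, was at 12.86 on SM + MSTF 3 and 10.14 to 11.25 elsewhere. Cp (ceruloplasmin) was at 13.93 against 12.45 to 13.20, and Fgg (fibrinogen gamma) at 18.41 against 17.42 to 17.84. Another 3 genes, also named after their values were seen, were not high on SM + MSTF 3 alone. Lcn2 was highest on SM 4 (12.42) and SM + MSTF 1 (14.47) and at 8.29 on SM + MSTF 3, and Orm1 was highest on the same 2 arrays, at 16.85 and 17.93. Hamp, the gene of the iron hormone hepcidin, was at 10.83, 14.13 and 14.92 in control, 14.94, 9.92, 12.33 and 12.08 in SM, and 16.18, 16.46 and 16.52 in SM + MSTF, the last group above all other arrays and level across slides 1 and 3. Its fold change of 4.07 in SM + MSTF versus SM (standard error 1.16) had a limma adjusted p of 0.147 and was not called.

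**Figure D5:**
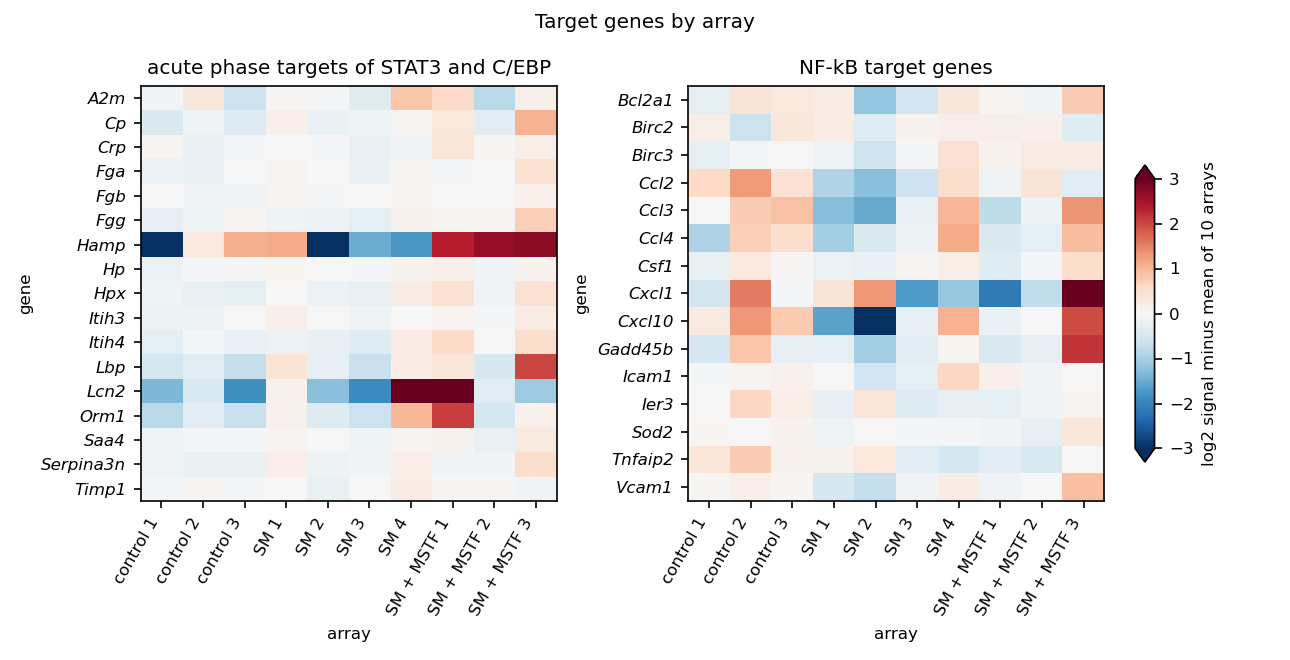
Log2 signal minus the mean of the 10 arrays (colour, limited to -3 to 3) for the tested genes (y axis) of the acute phase list and of the NF-kB target list on each array (x axis). SM + MSTF 3 was the highest array for 9 of 17 and 8 of 15 of them, while Lcn2 and Orm1 peak on SM 4 and SM + MSTF 1.

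Cell type markers were set beside the regulators, with the summed signal of the tested markers given as log2. Hepatocyte markers (7 of 7 tested, most abundant Tf) summed to 20.28 to 20.55 on all 10 arrays. Tf was at 18.72 on all 3 SM + MSTF arrays, since quantile normalization gives the same rank the same value. An even sum therefore does not show that the hepatocyte signal was steady. Of the Kupffer cell and macrophage list, the main IL1 source, 8 of 10 were tested, and the sum, mostly Clec4f, was 15.89, 15.77 and 16.28 in control, 15.45, 15.27, 15.98 and 16.06 in SM, and 15.87, 16.14 and 16.21 in SM + MSTF. Its 2 lowest arrays, SM 1 and SM 2, were also those of Il1b, but the other arrays did not keep the same order. Control 2 had a sum of 15.77 with Il1b at 9.96, and control 3 the highest sum, 16.28, with Il1b at 9.64. Natural killer markers (6 of 7 tested, most abundant Gzma, Ncr1 not well above background on any array) summed to 10.73, 10.81 and 10.84 in control, 10.23, 9.91, 10.67 and 11.41 in SM, and 10.44, 10.86 and 11.66 in SM + MSTF, highest on SM + MSTF 3. In that list Klrd1 was called, at -1.22 in SM versus control (adjusted p = 0.0277) and, with SM + MSTF set against SM, at 1.15 (adjusted p = 0.0455), the only called gene of the 49 markers tested in 10 lists, beside called shares of 2.41% and 1.26% of tested probes. Klrd1 was well above background on 2 of the 4 SM arrays, so the size of both folds is uncertain. Without SM + MSTF 3 the value against SM was 0.95 (adjusted p = 0.104) and not called. Neutrophil markers (3 of 10 tested, most abundant Np4; Camp, Csf3r, Elane and Mmp8 never well above background) summed to 9.43 to 9.77 in control, 9.24 to 10.92 in SM and 9.33 to 10.15 in SM + MSTF. T cell markers (5 of 7 tested, most abundant Cd3d, Cd5 never well above background) were highest on SM + MSTF 3, at 9.85, with 8.84 to 9.81 elsewhere. Stellate cell markers (8 of 8 tested, most abundant Col3a1) were lowest on that array, at 14.04, with 14.30 to 14.82 elsewhere, and so were cholangiocyte markers (2 of 5 tested, most abundant Epcam), at 8.49, with 8.85 to 9.92 elsewhere. It lay within the range of the other arrays for B cell markers (2 of 6 tested, most abundant Cd22; 8.01, others 7.53 to 8.11), sinusoidal endothelial markers (4 of 7 tested, most abundant Kdr; 14.41, others 14.02 to 14.42) and erythroid markers (4 of 6 tested, most abundant Hbb; 13.48, others 12.18 to 14.21). SM + MSTF 3 was the highest array for 10 of the 49 markers, among them 5 of the 6 natural killer markers. The part of these cell types in the regulators' signals was not tested.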

How the data were processed

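The authors read each spot with Feature Extraction 10.7, which gave the deposited background-subtracted intensity, and deposited log2 values normalized by the quantile algorithm. Here control spots and spots flagged as non-uniform (at most 4 on an array) were dropped, intensities were quantile normalized, and log2 values of a probe's spots were averaged. A tie among spots counted as well above background, a rule changed after a first run so that the number of tested probes equalled that of an earlier processing of these data. Probes that passed on all arrays of 1 or more groups were fitted with limma 3.58.1 (R 4.3.3), all 3 groups together. Of 41012 probes, 17512 were named through RefSeq (GRCr8). From each gene list, called genes, the 2 genes with the smallest p in SM versus control and the brightest gene were named; from each marker list, called genes and the brightest; and the 5 genes most like Socs3 and Nfkbia. Members and lists were chosen with earlier results of these data known. Genes said to be named after their values were seen fall outside this rule. The fixed slide block was refitted in another form after its first result, and SM + MSTF 3 was singled out in the data. The procedure was tested on simulated data.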

Additional observations from a re-analysis of the deposited data

Results flagged for a closer look

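Among 63 probes examined, for the regulators and the other genes named, 2 had 1 of the 4 SM arrays far from the rest, and chance alone sets about 1 in 20 such groups apart. Stat6, a JAK-activated transcription factor gene, was at 7.04 on SM 4, where the other SM arrays lay between 6.34 and 6.42. Lifr was at 7.21 on SM 3, where the other 3 lay between 7.11 and 7.12. No regulator had an SM array set apart in this way.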

How the results depend on the processing

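The count of regulators called was 0 in each of the 3 comparisons under every alternative run, except for 1 in SM + MSTF versus control with the slide as a fixed block (Il6r) and 1 there with the methods' t-test, unadjusted (Cebpb). That block was first fitted on control and SM + MSTF arrays alone (0 regulators called, Il6r adjusted p = 0.0502) and then, after this was seen, on all 10 arrays (1 called, Il6r adjusted p = 0.0198). It gives no value for comparisons with SM. SM + MSTF 3 was highest for 8 of the 9 regulators under quantile normalization, 75th percentile scaling, the deposited log2 values and normexp, settings chosen for this count after seeing the data.

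Over all tested probes, 553 were called in SM versus control, 226 with normexp, 342 with no filter, 336 with probes well above background on all 10 arrays, 85 with the slide as a random block, 1131 and 320 with the methods' t-test before and after adjustment, and 61 to 715 with 1 array left out. For SM + MSTF versus control these counts were 0 in the main fit, 291 with the slide as a fixed block on all 10 arrays and 158 in the form run first on control and SM + MSTF arrays alone, 285 with the unadjusted t-test of the methods, and 0 to 248 with 1 array left out, the highest without SM + MSTF 3. For SM + MSTF versus SM they were 290, 60 with normexp, 140 with probes well above background on all 10 arrays, 147 with only the groups compared, 102 with the slide as a random block, 863 and 13 with the methods' t-test before and after adjustment, and 96 to 291 with 1 array left out. Ties among the spots of a probe were at first not counted as well above background, which left 22987 tested probes. The rule was changed to match the number of probes, 22991, in an earlier processing of these data, and the called counts of 553, 0 and 290 were the same under both. With the replicate block the counts were 53, 0 and 64. Same-numbered arrays deviated together at r = -0.0992 to 0.169, and 3 of 9 correlated best with their own number, so the numbers did not pair the samples.

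Of 27 fold changes of regulators, 16 changed sign under some alternative. Socs3 in SM versus control, at -0.02, was at 0.0178 with 75th percentile scaling, 0.00417 with normexp, 0.0604 with the slide as a random block and -0.18 to 0.0873 with 1 array left out. Socs3 in SM + MSTF versus control was at -0.0314 with 75th percentile scaling and -0.34 to 0.21 with 1 array left out, and in SM + MSTF versus SM at -0.0491 and -0.33 to 0.23. Il6r in SM versus control was at 0.0191 with the slide as a random block. In SM + MSTF versus control with 1 array left out, Il6r ran from -0.0868 to 0.51, Il6st from -0.0710 to 0.32, Nfkbia from -0.19 to 0.32 and Il1rn from -0.78 to 0.27, the last at 1.03 with the slide as a fixed block in both forms. In SM + MSTF versus SM, Il6r ran from -0.0269 to 0.57, Cebpd from -0.00221 to 0.47, Stat3 from -0.15 to 0.58, Il1rn from -0.27 to 0.68 and Nfkbia from -0.24 to 0.27. Nfkbia in SM versus control ran from -0.0939 to 0.22. Other probes gave 0.21 and 0.16 for Il6st and -0.34 for Stat3 in SM versus control. The number of arrays and the spread within groups limit what could be detected. The median signal over background (2.20 to 2.54 per array) is taken over all spots but the control spots. It does not describe the regulators, whose probes were well above background on every array.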

Other observations

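The regulators show no called group effect at 24 h in the main fit, and 3 or 4 arrays per group leave intervals wide enough to hold changes of 1.5-fold for most of them. SM and slide 2 cannot be told apart. The common high signals of SM + MSTF 3 come from 1 rat, on the slide of the controls, and whether they belong to the rat, its sampling or the array was not tested. Transcript levels do not show protein, phosphorylation or nuclear transfer, through which Stat3 and NF-kB act. The array signal of Il1r1 was not analysed here, and changes before or after 24 h were not measured.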
